A study of Homo sapiens with 2 samples.

Results

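The loci described here are those of 4 regulators of the step from G1 to S phase: the kinase CDK6, its activating partner cyclin D1 (CCND1), and the inhibitors CDKN1A and CDKN2B, the last treated as 1 locus with its neighbour CDKN2A. All PROX1 peaks were taken whose centre lay in a fixed span of hg18, made of the gene plus about 50 kb on either side. These spans held 33 of the 23450 peaks of the deposited list, or 0.141%: 20 at CDK6, 6 at CDKN1A, 4 at CCND1 and 3 at CDKN2B with CDKN2A. The loci were chosen by the number of peaks at their spans, with the list and its tags and folds known, so all of these values are a description and were not tested.

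The study mapped the sites of PROX1, a homeobox transcription factor, in SW480R, a subpopulation of the established human colorectal adenocarcinoma line SW480. Chromatin immunoprecipitation with an anti-PROX1 antibody was followed by sequencing (ChIP-seq), and 1 such library was set against 1 library of input DNA from the same cells. The ChIP DNA was a pool of 3 independent experiments, so the spread between them is not in the data, and the cells are 1 line with no other condition. No comparison between samples was therefore possible, and each interval below covers counting error only. How deeply the libraries were sequenced is unknown. The list holds for each peak a number of ChIP tags (sequenced fragments) and a value read here as a fold over input. Both are the authors' own values, in columns without a header.

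As background, cells leave G1 when D-type cyclins such as cyclin D1 bind the kinases CDK4 and CDK6, which then phosphorylate the retinoblastoma protein and free E2F factors to switch on S phase genes. CDKN2B (p15) and CDKN2A (p16) bind CDK4 and CDK6 and keep them from the cyclin, whereas CDKN1A (p21), a classical target of p53, inhibits cyclin-CDK complexes more broadly. CCND1 is also a well known target of Wnt signalling, the pathway that is overactive in most colorectal tumours. In that tissue PROX1 is itself known as a Wnt target.

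Gene positions on hg18 were available only through the spans. Taking 50 kb off each end leaves an approximate gene interval, called the gene interval below. It covers 92072000 to 92304000 of chromosome 7 for CDK6, 69165000 to 69178000 of chromosome 11 for CCND1, 36754000 to 36763000 of chromosome 6 for CDKN1A, and 21957000 to 21999000 of chromosome 9 for CDKN2A and CDKN2B together. Distances to its edges are approximate for the same reason, and exons, introns and UTRs were not assigned. CDK6, CDKN2A and CDKN2B are read towards lower coordinates, so their starts lie on the high side, and CDKN1A is read towards higher ones.

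Of the 5 genes, CDK6 and CDKN1A had peaks nearest to the edge where the gene starts, so their promoter sequences are shown. They come from RefSeq on GRCh38.p14, whose coordinates cannot be set beside those of the hg18 peaks, and the 250 bases before the start of transcription are printed 5′ to 3′ on the gene's own strand. Capitals mark the GC box GGGCGG, the site of SP1-type factors, or its reverse complement CCGCCC. The CDKN1A sequence is chr6:36678464-36678713, plus strand, and the CDK6 sequence is chr7:92836574-92836823, minus strand, at the outer of 2 starts in the table.
CDKN1A: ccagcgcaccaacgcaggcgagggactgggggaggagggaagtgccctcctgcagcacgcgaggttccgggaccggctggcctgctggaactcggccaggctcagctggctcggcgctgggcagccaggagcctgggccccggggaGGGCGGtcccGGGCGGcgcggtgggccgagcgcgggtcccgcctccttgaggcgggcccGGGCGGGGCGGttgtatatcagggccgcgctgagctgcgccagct
CDK6: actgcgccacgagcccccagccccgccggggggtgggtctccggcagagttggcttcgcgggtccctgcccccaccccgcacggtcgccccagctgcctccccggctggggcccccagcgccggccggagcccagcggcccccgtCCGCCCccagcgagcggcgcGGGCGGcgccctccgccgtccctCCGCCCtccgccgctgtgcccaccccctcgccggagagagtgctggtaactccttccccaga
The CDKN1A promoter held 4 GC boxes, a pair of which overlap. The printed CDK6 promoter held 3, but the one at the inner start of CDK6 held 0. CDKN2B had 2, and the entries of CDKN2A had 0 at the outer start and 1 at the inner one. At least 1 GC box was found in 42.6% of 35116 RefSeq promoters of this length. GC content was 76.4% at CDKN1A, higher still at the outer start of CDK6 and 67.6% at its inner start, against a median of 58% over all promoters. The TATA box string TATAAA (10.7% of promoters) and the TCF/LEF string CTTTGAT (2.26%) were searched on both strands. Neither was in any of the entries for CDK6, CDKN1A, CDKN2A and CDKN2B. Only these exact strings were searched, so other forms of the sites may be present. The table had 6 entries for 4 of the 5 genes, with CCND1 as the other gene. Whether a PROX1 peak lies in either printed sequence was not determined, and a match of letters does not show that a factor binds.

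PROX1 peaks were listed at CDK6 at 0.0602 per kb (exact 95% Poisson interval 0.0368 to 0.0930, 20 peaks over 332 kb) and at CDKN1A at 0.0550 per kb (0.0202 to 0.120, 6 peaks over 109 kb). CCND1 followed with 0.0354 per kb (0.00964 to 0.0906, 4 peaks over 113 kb) and CDKN2B with CDKN2A with 0.0211 per kb (0.00436 to 0.0617, 3 peaks over 142 kb). The nuclear genome held 0.00760 peaks per kb, so the spans were at 7.92, 7.24, 4.66 and 2.78 times that rate in this order. The 95% intervals of these ratios were 4.84 to 12.2, 2.66 to 15.8, 1.27 to 11.9 and 0.573 to 8.12. The last includes 1. Because the loci were chosen by their number of peaks in this list, an interval with or without 1 is no test against the genome rate. The intervals of all 4 rates overlap. Overlap is not itself a comparison, and the spans were not tested against each other, so no order by peak rate is claimed. The intervals take peaks as independent, which neighbouring peaks are not.

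**Figure D1:**
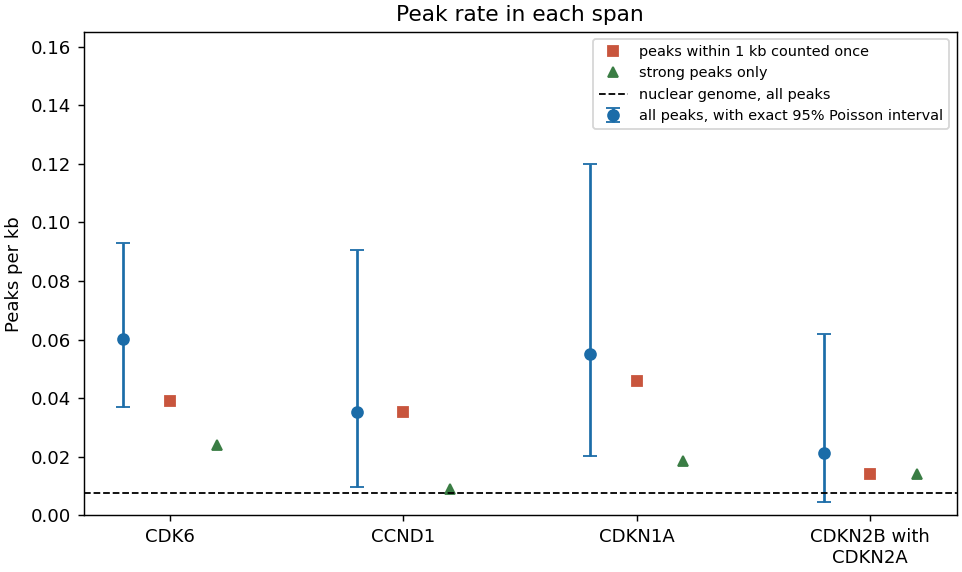
Peaks per kb (vertical axis) in each of the 4 spans, with all peaks as circles and bars for exact 95% Poisson intervals, peaks within 1 kb counted once as squares, strong peaks (a fold of 26.06 or more) as triangles, and the rate of the nuclear genome as a dashed line. All peaks reach 0.0602 per kb at CDK6 and 0.0211 at CDKN2B with CDKN2A, with overlapping bars.

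Windows of the same length, laid end to end over hg18, show how common such counts are. As many peaks or more were held by 0.71% of 8451 windows as long as the CDK6 span and by 2.98% of 26010 windows as long as that of CDKN1A. For CCND1 the share was 7.47% of 25101 windows, and for CDKN2B with CDKN2A it was 15.7% of 19917. Most windows of the 3 shorter lengths held no peak (56.7% to 62.9%), as did 35.9% of those as long as the CDK6 span. Counts of 3 or 4 peaks in spans of this size were thus met in many places of the genome.

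The peaks sat at different places relative to the genes. All 20 peaks of the CDK6 span lay inside the gene interval and none in its 50 kb margins. That interval takes up 232 of the 332 kb of the span. At the genome rate the whole span would hold 2.52 peaks and the gene interval 1.76, so finding none in the margins is no sign of depletion. At CDKN1A, 1 of 6 lay inside, 3 below and 2 above. None of the 4 peaks at CCND1 and none of the 3 at CDKN2B with CDKN2A lay inside, and all 7 were on the high side. An interval as short as that of CCND1 (13 kb) would hold 0.0988 peaks at the genome rate, and that of CDKN2B with CDKN2A (42 kb) 0.319, so finding none there is no sign of depletion.

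**Figure D2:**
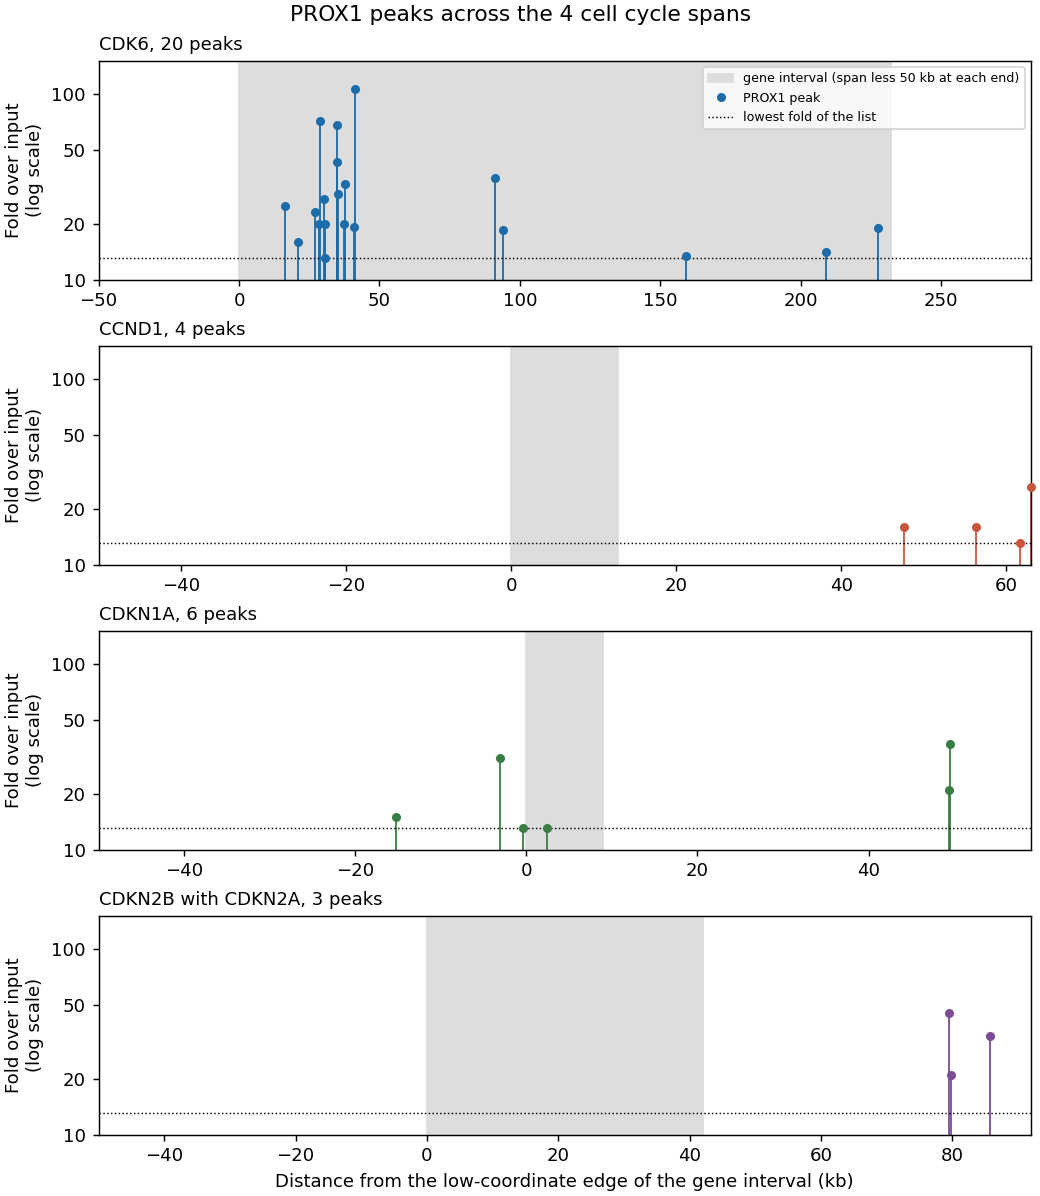
Fold over input (vertical log axis) of each PROX1 peak against its distance in kb from the low-coordinate edge of the gene interval, with 1 panel per span, the gene interval shaded and the lowest fold of the list, 13.03, dotted. All 20 CDK6 peaks fall in the shaded interval, while the CCND1 and CDKN2B with CDKN2A peaks lie to its right.

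At CDK6, most peaks were packed into 1 stretch. Joining peaks whose edges lay within 10 kb put 15 of the 20 into a run of 24.84 kb, from 92088411 to 92113251 of chromosome 7. Only 6 of the 14752 places formed in this way in the nuclear genome, or 0.0407%, held 15 peaks or more. Places include peaks that stood alone, and 4579 of them held 2 peaks or more. The run lies 16.4 to 41.2 kb inside the low edge of the gene interval, which is the 3′ end of the gene, and about 191 kb or more from the edge where CDK6 starts. It held 801 tags, 67.1% of those in the span. Outside the run, the span held 5 peaks over 307 kb, 0.0163 per kb or 2.14 times the genome rate.

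The run began with 3 peaks that lay more than 1 kb from any other. At 92088411 to 92088471 there were 25 tags at a fold of 25.06, and at 92093091 to 92093131 there were 16 tags at a fold of 16.04. The third, at 92098931 to 92098971, had 92 tags (fold 23.06). From there the peaks came in tight groups, 7 of the 14 gaps in the run being 500 bp or less.

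The first group of the run was a pair 220 bp apart. Its members at 92100491 to 92100551 and 92100771 to 92100811 had 20 tags (fold 20.05) and 71 tags (fold 71.18). A trio spread over 340 bp followed. Its peaks at 92102331 to 92102371, 92102451 to 92102491 and 92102611 to 92102671 had 27, 13 and 20 tags and folds of 27.07, 13.03 and 20.05. The middle one of these stood at the lowest fold of the list.

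A further trio, spread over 380 bp, was taller. Its peaks at 92106771 to 92106811, 92106971 to 92107011 and 92107091 to 92107151 had 68, 43 and 29 tags, with folds of 68.17, 43.11 and 29.07. All 3 were strong peaks, as those with 2 times the lowest fold or more (26.06) are called here. The next pair, at 92109411 to 92109451 and 92109531 to 92109671, had 20 tags (fold 20.05) and 98 tags (fold 32.75).

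The last pair of the run carried the most tags of its groups, 259. Its peak at 92112951 to 92112991 had 153 tags and reached 19.17 times input. Its partner 100 bp further on, at 92113091 to 92113251, had 106 tags but reached 106.26 times. The partner, 160 bp wide, had the highest fold of all 33 peaks, and 0.756% of nuclear peaks had a fold as high or higher. Tags and fold thus ordered these neighbours in opposite ways.

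**Figure D3:**
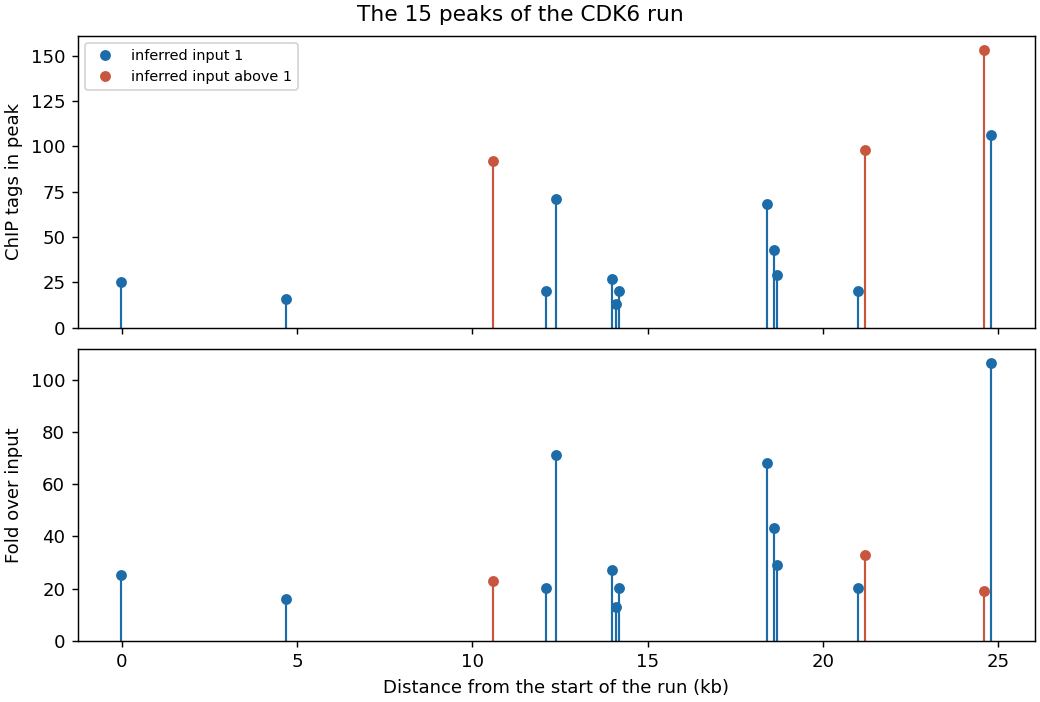
ChIP tags (upper panel) and fold over input (lower panel) of the 15 peaks of the CDK6 run against their distance in kb from its start, with blue for an inferred input of 1 and red for a higher one. The red peaks, of 92, 98 and 153 tags, have folds of 23.06, 32.75 and 19.17, while the blue peak of 106 tags has a fold of 106.26.

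An input tag number can be inferred for each peak from its tags and its fold. It restates their ratio and is no separate measurement. Of the 15 peaks of the run, 12 had the lowest inferred input, 1, beside 71.9% of nuclear peaks. The peak of 153 tags had an inferred input of 8, that of 92 tags 4, and that of 98 tags 3. Joined within 1 kb in place of 10 kb, the run falls into 8 places, of which 5 hold 2 or 3 peaks each and are 260 to 380 bp across. Whether peaks so close are separate PROX1 sites or parts of 1 site was not tested.

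The other 5 peaks of CDK6 were scattered over the rest of the gene. At 92163091 to 92163131, 49.8 kb past the run, lay the peak with the most tags of all 33, 283. Its fold was 35.46 and its inferred input 8. Tag counts as high or higher were found in 0.278% of nuclear peaks. Its neighbour at 92165951 to 92166071 had 37 tags (fold 18.55). The remaining peaks stood alone, with folds up to the median of the list, 19.05. They were at 92230971 to 92231031 (40 tags, fold 13.37), 92281051 to 92281091 (14 tags, fold 14.03) and 92299551 to 92299591 (19 tags, fold 19.05). The last is the one nearest the start of CDK6, about 4.43 kb inside the gene interval.

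Stretches without a listed peak lay on both sides of the CDK6 peaks. Long empty stretches were also met at other loci, 187 kb above the last CDKN1A peak and 232 kb below the first one at CDKN2B with CDKN2A. Of windows of 332 kb, as long as the CDK6 span, 35.9% held no peak. The nearest listed peak below the run lay 563 kb from it, at 91525451 to 91525491 (18 tags, fold 18.04). The nearest above the last CDK6 peak lay 156 kb away, at 92455511 to 92455551 (17 tags, fold 17.04). FAM133B is the next protein-coding gene in RefSeq on the low side and SAMD9 on the high side. Widening the span by 50 kb at each end added no peak.

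At CCND1, the gene of cyclin D1, the 4 peaks formed 1 run of 15.48 kb well outside the gene interval. Joined within 5 kb, the largest run held 2 peaks, and within 1 kb each peak stood alone. CCND1 is read towards higher coordinates, so they lie beyond its 3′ end, 34.6 kb or more from the high edge. The first 2, at 69212611 to 69212651 and 69221291 to 69221331, had 16 and 32 tags and the same fold, 16.04. The third, at 69226591 to 69226631, had 13 tags and stood at the lowest fold of the list, 13.03. The fourth, at 69227891 to 69228091, was 200 bp wide, with 26 tags and a fold of 26.06, exactly the limit for a strong peak.

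The fourth CCND1 peak also marks the edge of the rule. Its centre lay 9 bp inside the span, and the next peak outside was 22.1 kb further on, at 69250071 to 69250191 (55 tags, fold 25.06). From the start of the span to the first peak, 97.6 kb that include the whole gene interval held no listed peak. A run of 4 peaks or more was found at 917 of the 14752 places of the nuclear genome, or 6.22%, lone peaks included. Places of 2 peaks or more numbered 4579. In RefSeq the genes LOC124902704, LTO1 and FGF19, the last an intestinal hormone that restrains bile acid synthesis, follow CCND1 on this side. Which of them, if any, holds these peaks was not determined, so the peaks are near CCND1 by distance alone.

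CDKN1A, which encodes p21, was the one of the 3 inhibitors with peaks beside its start. Of places of the nuclear genome, lone peaks included, 13.1% held 3 peaks or more. Here a run of 3 peaks spanned 5.62 kb around the low edge of the gene interval, where the gene starts. The peak at 36750851 to 36750971, about 3.09 kb before that edge, had 31 tags (fold 31.08) and was strong. The peak at 36753611 to 36753651, about 0.369 kb before it, had 13 tags, and the peak at 36756311 to 36756471, about 2.39 kb inside, had 15. Both had a fold of 13.03, the lowest in the list. The peaks closest to the start were thus the weakest of the list by fold. By tags this held for the peak of 13, the fewest of any listed peak, but not for that of 15.

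Most CDKN1A tags lay further away. A pair 80 bp apart, at 36803351 to 36803471 (43 tags, fold 21.05) and 36803551 to 36803591 (74 tags, fold 37.09), held 55.5% of the 211 tags of the span. This pair was about 40.4 kb beyond the end of the gene interval, on the side where RAB44 is the next protein-coding gene in RefSeq. The remaining peak, at 36738651 to 36738871, was 220 bp wide, the widest of all 33, and carried 35 tags (fold 15.04). It stood alone, 15.2 kb before the gene interval.

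The nearest peaks outside the CDKN1A span were unevenly distant. On the low side, 36693111 to 36693251 (18 tags, fold 18.04) lay 10.8 kb beyond the span. On the high side the next was 177 kb away, at 36990111 to 36990151 (42 tags, fold 14.03).

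CDKN2B, the gene of p15, and CDKN2A, the gene of p16 and ARF, had no listed peak in their shared interval. The 3 peaks of the span formed 1 run of 6.44 kb, 37.4 to 43.8 kb beyond the high edge, which is the side where CDKN2B starts. They were at 22036411 to 22036451 (45 tags, fold 45.11), 22036771 to 22036811 (21 tags, fold 21.05) and 22042711 to 22042851 (34 tags, fold 34.08). Their lowest fold, 21.05, is above the median of the list, 19.05, and all 3 had the lowest inferred input. With the fewest peaks of the 4 spans, this one had the highest median fold, 34.08, but over 3 peaks only.

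Below these peaks, 232 kb without a listed peak covered the gene interval and reached down to 21804031 to 21804071 (20 tags, fold 20.05). Above them the next peak was near, at 22055091 to 22055211 (18 tags, fold 18.04), 6.15 kb outside the span. The long noncoding RNA gene CDKN2B-AS1 overlaps both inhibitors in RefSeq, and the next protein-coding gene on the high side is DMRTA1. Whether the 3 peaks lie in CDKN2B-AS1 was not determined on hg18.

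In tags, CDK6 stood further from the other spans than in number of peaks. It held 1194 of the 1592 tags, or 3.60 per kb, against 1.94 at CDKN1A, 0.770 at CCND1 and 0.704 at CDKN2B with CDKN2A. The nuclear genome held 0.287 tags in peaks per kb. The single peak of 283 tags made up 23.7% of the CDK6 tags. Tags are not corrected for input. At CDK6, 14 of 20 peaks had the lowest inferred input (71.9% of nuclear peaks), but those of 283 and 153 tags each had 8. These densities count tags inside listed peaks alone, and they were not tested.

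The 33 peaks were spread over the strength range of the list. Their median was 31 tags (range 13 to 283) and a fold of 21.05 (range 13.03 to 106.26), against 25 tags and 19.05 over all nuclear peaks. Strong peaks numbered 13 of 33 (39.4%), beside 30.3% of nuclear peaks: 8 at CDK6, 2 at CDKN1A, 1 at CCND1 and 2 at CDKN2B with CDKN2A. At the lowest fold stood 4 of the 33, beside 9.57% of nuclear peaks, and these were 1 at CDK6, 1 at CCND1 and 2 at CDKN1A. The spans of CDK6, CDKN1A and CCND1 thus mixed folds above and below the median of the list. All peaks at CDKN2B with CDKN2A had folds above that median, and none stood at the lowest.

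**Figure D4:**
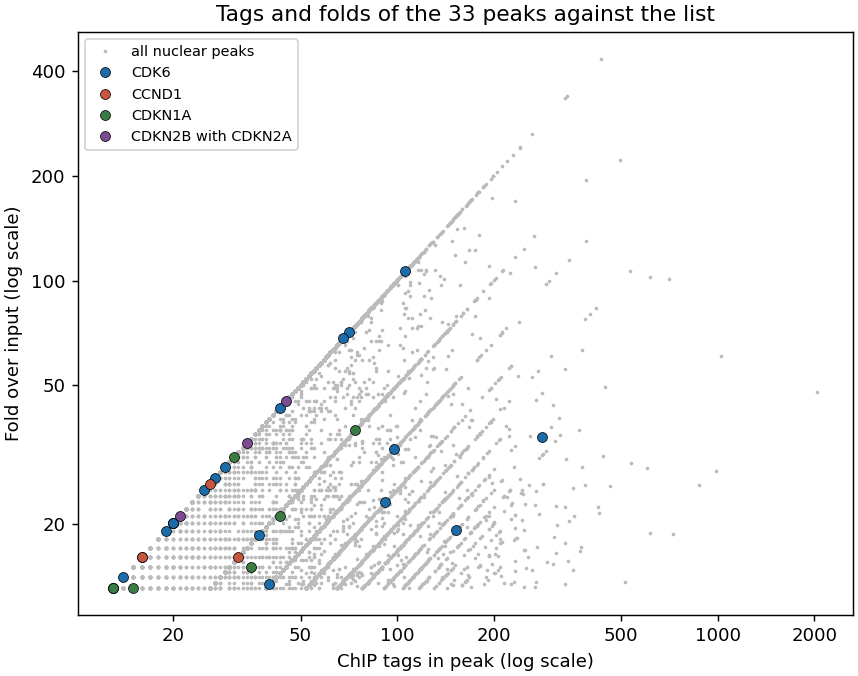
Fold over input against ChIP tags (both log axes) for all nuclear peaks in grey and for the peaks of the 4 spans in colour. The upper diagonal holds peaks at the lowest inferred input, and the CDK6 peaks of 153 and 283 tags lie far to its right, at folds of 19.17 and 35.46.

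Spacing, width and input were also compared with the list. Another peak lay within 10 kb of 29 of the 33 peaks, beside 56.6% of nuclear peaks, and within 500 bp of 16, beside 27.6%. The 4 peaks with no neighbour within 10 kb were 3 at CDK6 and 1 at CDKN1A. Widths of 80 bp or more were found in 9 of the 33 (27.9% of nuclear peaks), and 4 of these 9 were at CDKN1A, where the median width was 120 bp against 40 bp at each of the others. The lowest inferred input was found for 22 of the 33 (71.9% of nuclear peaks), namely 14 of 20 at CDK6, 2 of 6 at CDKN1A, 3 of 4 at CCND1 and 3 of 3 at CDKN2B with CDKN2A. All of these measures come from the list that the rule used.

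Each span was also set against the remainder of its chromosome. Outside the span, chromosome 7 held 0.00862 peaks per kb, chromosome 11 held 0.00780, chromosome 6 held 0.00724 and chromosome 9 held 0.00616. Relative to these, the ratio was 6.99 for CDK6, 4.54 for CCND1, 7.61 for CDKN1A and 3.43 for CDKN2B with CDKN2A. The order of CDK6 and CDKN1A is therefore the reverse of that against the whole genome, a difference well within their intervals.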

How the data were processed

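One PROX1 ChIP-seq library and 1 input library of SW480R cells were described through the authors' peak list. Coordinates refer to hg18, as the submitters' processing notes name it. For the aligner, peak caller and threshold, nothing is stated in the sources. Without a header, the columns of the list had to be identified by their values. Tag counts, as deposited, are whole numbers, and whether they were scaled is not stated. The deposited fold was taken, from its values, to be a ratio of ChIP to input tags, which does not hold exactly for every peak. The deposited p-value, which may be a q-value, reaches 0.00099 and was not used further. The lowest fold listed is 13.03. Coordinates are as listed, since whether starts count from 0 or 1 is unknown. The input library entered through the fold alone.

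Peaks were counted by centre in spans given by the rule for these loci. Members, spans and lists were chosen with earlier results of these data known. All members are named, and peaks are named by rank in tags, fold and width, by position, and, in spans of 10 or fewer and in the largest run, in full. Runs joined edges within 10 kb. Input was inferred as tags times 1.00 (the median ratio of fold to tags, over peaks with more than 100 tags and the lowest input), over the fold. It was whole, within 0.02, for 91.7% of nuclear peaks and all but 3 of the 33, which are at CDKN1A. The lowest value, 1, may stand for 0 or 1 input tags. Rates used 24 nuclear chromosomes and leave out 33 mitochondrial peaks. Windows needed 90% of their length in contigs. Lengths came from GenomeInfoDb 1.38.1 and contigs from IRanges 2.36.0. Python 3.11.15, numpy 2.4.6, scipy 1.17.1, pandas 2.3.3 and matplotlib 3.10.9 were used. Counting was tested on simulated data with planted runs. Reads without molecular identifiers are not independent molecules. No hg18 annotation was used, so other cell cycle genes were not counted.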

Additional observations from a re-analysis of the deposited data

How the results depend on the processing

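All 16 alternative ratios to the genome rate stayed above 1 and inside the interval of the value reported. The alternatives were length without gaps, own chromosome, peaks within 1 kb counted once, and strong peaks only. Because the loci were chosen by their number of peaks in this same list, ratios above 1 are no independent support. The intervals are also wide, 0.573 to 8.12 at CDKN2B with CDKN2A, so staying inside them says little. With strong peaks only, the CCND1 ratio rests on 1 peak. Of 24 alternative rates, 18 stayed inside their interval. With strong peaks only, the rate was 0.0241 per kb at CDK6, 0.00885 at CCND1 and 0.0183 at CDKN1A, and with peaks at or above the median fold of the list it was 0.00885 at CCND1. These lists hold fewer peaks by construction. In the gene interval alone it was 0 at CCND1 and 0 at CDKN2B with CDKN2A. The largest run kept to within 1.5 times its number of peaks in 8 of 12 alternatives. At CDK6 it held 3 peaks when edges within 1 kb were joined. At CCND1 it held 2 when joined within 5 kb and 1 within 1 kb. At CDKN2B with CDKN2A it held 7 within 20 kb, through peaks outside the span. No paired analysis was possible because each kind of library was sequenced once. With 1 library of each kind, no replicate could be left out. Only peaks past the authors' threshold are listed, so weaker signal at the empty gene intervals could not be assessed.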

Other observations

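The 50 kb beyond each span differed between the loci. At CDKN2B with CDKN2A, 4 further peaks lay on the high side and none on the low side, at 22055091, 22074771, 22088811 and 22093451 of chromosome 9, with 18, 23, 21 and 59 tags. Their folds were 14.79 to 23.06, so none was strong, beside 30.3% of all nuclear peaks. At CCND1, 2 peaks lay beyond each side, and the one at 69066011 to 69066051 of chromosome 11 was strong, with 41 tags and a fold of 41.1. CDKN1A had 1 further peak and CDK6 none. These flanks were described after the peaks of the spans had been seen, and no test was made.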
